A study of Mus musculus with 2 samples.

Results

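Resident Mrc1 F13a1 macrophages of the mouse aorta were selected from droplet-based single-cell RNA sequencing by their own transcripts, and 114 of 28892 deposited cell barcodes met the rule. A barcode had to hold at least 1500 UMIs (unique molecular identifiers, so that a transcript is counted 1 time) with at most 20% of them mitochondrial. It had to reach 2000 CPM (counts per 1000000 UMIs of the barcode) of the macrophage complement genes C1qa, C1qb and C1qc together. It had to stay under 2000 CPM of the smooth muscle genes Acta2 and Tagln, under 2000 CPM of the fibroblast genes Dcn and Lum, and under 5000 CPM of the foam cell genes Spp1, Trem2 and Gpnmb. Finally it had to reach 1000 CPM, with at least 2 UMIs, of a panel made of Mrc1, F13a1 and Clec10a. The members were 91 of 21126 barcodes of the wild-type library and 23 of 7766 barcodes of the Kif13b-/- library.

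Resident macrophages live in the outer coat of arteries, take up debris and matrix through scavenger and lectin receptors, and renew themselves in place with some input from blood monocytes. Their textbook markers include the mannose receptor gene Mrc1, the transglutaminase gene F13a1, the lectin gene Clec10a, the hyaluronan receptor gene Lyve1, the folate receptor gene Folr2 and the chemokine genes Ccl8 and Pf4. Foam cells, by contrast, are lipid-laden macrophages of atherosclerotic lesions that carry Spp1, Trem2 and Gpnmb.

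The study sequenced 1 aorta library of genotype WT and 1 library titled Kif13b-/-, whose genotype label reads knock down. KIF13B is a kinesin that moves cargo along microtubules, and the series asks about its part in efferocytosis, the removal of dying cells, through the receptor MERTK. Neither the animals (their number, sex, age, strain and diet) nor the deleted part of the gene are described in the sources used here. There is no replicate of either genotype and therefore no test. All 95% intervals cover counting error only, and differences between the libraries cannot be told apart from differences between single preparations.

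The libraries held 93136569 wild-type and 64455003 Kif13b-/- UMIs, with medians of 2162.5 and 5384.5 per barcode. The depth and mitochondrial limits left 13653 and 6342 barcodes. C1q reached its minimum in 1418 and 1494 of these, and the smooth muscle and fibroblast limits then left 640 wild-type and 367 Kif13b-/- C1q macrophages, so those limits took away a larger share in the Kif13b-/- library. Besides the 91 and 23 members these were 237 and 179 foamy cells, at or above the foam cell limit, and 312 and 165 remaining C1q macrophages. The libraries shared 52 barcode sequences, of which 0 belonged to a member.

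The wild-type members held 639307 UMIs in all, with a median of 6480 per cell (1940 to 19623), and the Kif13b-/- members held 200238, with a median of 9883 (1524 to 15771). They showed medians of 2158 and 2581 genes and of 2.56% and 2.71% mitochondrial UMIs. The panel level, which the rule set at 1000 CPM or more, had a median of 1720 CPM in wild-type members (1013 to 8590) and 1826 CPM in Kif13b-/- members (1027 to 5508). Just inside the limit, 34 and 8 members lay under 1500 CPM, and just outside it 57 and 15 non-foamy C1q macrophages lay at 500 to under 1000 CPM. All 3 panel genes were seen in 46 wild-type and 10 Kif13b-/- members, while 21 and 7 members passed on Mrc1 alone and 2 and 3 on F13a1 alone.

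The label was set beside marker genes of 17 cell types. The rule fixed in part what follows, since it asked for a high level of 3 of the 5 resident markers (Mrc1, F13a1 and Clec10a, but not Ccl8 and Pf4) and capped Acta2, Tagln, Dcn and Lum. These 5 markers summed to 6141 and 4300 CPM in the members, against 464 and 212 CPM in remaining C1q macrophages and 65.5 and 38.2 CPM in barcodes under 500 CPM of C1q, called non-macrophage barcodes here. Smooth muscle markers summed to 186 and 140 CPM in the members, against 9489 and 9683 CPM in non-macrophage barcodes. Fibroblast markers stood at 244 and 205 CPM against 15439 and 15838 CPM, and endothelial markers at 214 and 94.9 CPM against 1226 and 1135 CPM. The part of such RNA in the results was not tested.

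Markers of other immune cells were uneven. All 5 NK cell and all 5 mast cell markers were at 0 UMIs in both libraries, and T cell markers summed to 4.69 and 4.99 CPM. Monocyte markers summed to 236 and 235 CPM in the members, above the 108 and 105 CPM of remaining and the 8.47 and 30.05 CPM of foamy cells, and beside 92.3 and 144 CPM in non-macrophage barcodes. Neutrophil markers reached 216 CPM in the wild-type members, but 56 of 56 S100a8 and 60 of 60 S100a9 UMIs came from 1 cell, and Retnlg and Cxcr2 were at 0.

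The stretches just upstream of 4 resident macrophage genes, of which only Mrc1 is in the rule, are shown. They are the 250 bases before the start of Mrc1 (chr2:14229164-14229413), Ccl8 (chr11:82114935-82115184), Pf4 (chr5:90772185-90772434) and Cd163 (chr6:124304401-124304650), on the plus strand of GRCm38.p6, from RefSeq. Capitals mark matches, on either strand, to the MAF half-site TGCTGA or the PU.1 core GAGGAA.
Mrc1: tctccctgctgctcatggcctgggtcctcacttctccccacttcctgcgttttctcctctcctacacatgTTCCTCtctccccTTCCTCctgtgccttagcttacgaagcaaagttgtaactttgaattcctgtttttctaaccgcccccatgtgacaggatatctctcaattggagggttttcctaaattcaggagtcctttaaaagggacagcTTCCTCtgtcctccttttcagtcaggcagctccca
Ccl8: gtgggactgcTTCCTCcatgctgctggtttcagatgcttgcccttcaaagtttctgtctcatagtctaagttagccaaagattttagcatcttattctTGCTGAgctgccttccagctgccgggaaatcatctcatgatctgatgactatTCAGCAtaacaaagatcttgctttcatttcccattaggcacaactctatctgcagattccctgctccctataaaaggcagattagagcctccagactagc
Pf4: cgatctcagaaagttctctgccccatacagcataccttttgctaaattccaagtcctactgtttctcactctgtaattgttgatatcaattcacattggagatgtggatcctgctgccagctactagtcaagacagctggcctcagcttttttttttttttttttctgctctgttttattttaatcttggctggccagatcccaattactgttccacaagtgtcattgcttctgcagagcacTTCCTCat
Cd163: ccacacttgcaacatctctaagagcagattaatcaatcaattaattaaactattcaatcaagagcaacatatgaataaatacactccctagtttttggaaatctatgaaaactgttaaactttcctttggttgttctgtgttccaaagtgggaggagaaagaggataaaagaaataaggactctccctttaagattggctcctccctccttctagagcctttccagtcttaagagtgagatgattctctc
The MAF half-site was found in 16.1% of 32841 promoters of this length, and among the 4 shown only Ccl8 held it, at 2 places that begin 152 and 100 bases before the start. Among the genes searched but not shown, both Folr2 promoters and the Timd4 promoter held it, and those of F13a1 and Cbr2 did not. The PU.1 core, present in 23.3% of promoters, was found 3 times before Mrc1, 1 time each before Ccl8 and Pf4 and 0 times before Cd163. The AP-1 motif TGANTCA (6.75% of promoters) and the interferon response element (GAAA, any 2 bases, GAAA, 2.98%) were in none of the 4. Of the genes not shown, 1 of the 2 Folr2 promoters held the AP-1 motif. No motif searched contains another, and a match is a run of letters, not a measured binding site.

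Transcripts outside the rule were described first for the resident programme. Ccl8, a chemokine that draws monocytes and lymphocytes, stood at 2567 CPM (2444 to 2694) in wild-type and 1378 CPM (1221 to 1551) in Kif13b-/- members, against 59.7 and 27.8 CPM in the other C1q macrophages (foamy and remaining together) and 5.78 and 4.59 CPM in non-macrophage barcodes. The log2 ratio of members over other C1q macrophages was 5.43 (5.26 to 5.60) in the wild-type and 5.63 (5.34 to 5.93) in the Kif13b-/- library. These ratios describe cells that the rule chose by related genes, so they carry no test.

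Ccl8 was far from even among the members. Per cell it ran from 0 through a median of 356 CPM to 32120 CPM in wild-type members and from 0 through 101 CPM to 10146 CPM in Kif13b-/- members. A Ccl8 UMI was seen in 51 of 91 wild-type members (56.0%, 45.2 to 66.4%) and 12 of 23 Kif13b-/- members (52.2%, 30.6 to 73.2%), at the median depths of 6480 and 9883 UMIs. The same share was 11.0% and 11.7% of foamy cells (median depths 10780 and 16669 UMIs) and 2.67% and 2.47% of non-macrophage barcodes (3828 and 7278 UMIs), which are a mix of cell types. With each member thinned to 1500 UMIs the shares were 48.4% and 39.1%, so Ccl8 marked about as many members as it left unmarked.

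Pf4, platelet factor 4, was spread over more members than Ccl8 in both libraries. It stood at 1034 CPM (957 to 1116) in wild-type and 734 CPM (620 to 863) in Kif13b-/- members, against 190 and 108 CPM in other C1q macrophages (log2 ratios 2.44 and 2.77). A Pf4 UMI was seen in 72 wild-type members (79.1%, 69.3 to 86.9%) and 15 Kif13b-/- members (65.2%, 42.7 to 83.6%), against 1.55% and 1.21% of non-macrophage barcodes. Per cell the level ran from 0 through 660 to 4860 CPM and from 0 through 444 to 15092 CPM.

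**Figure D1:**
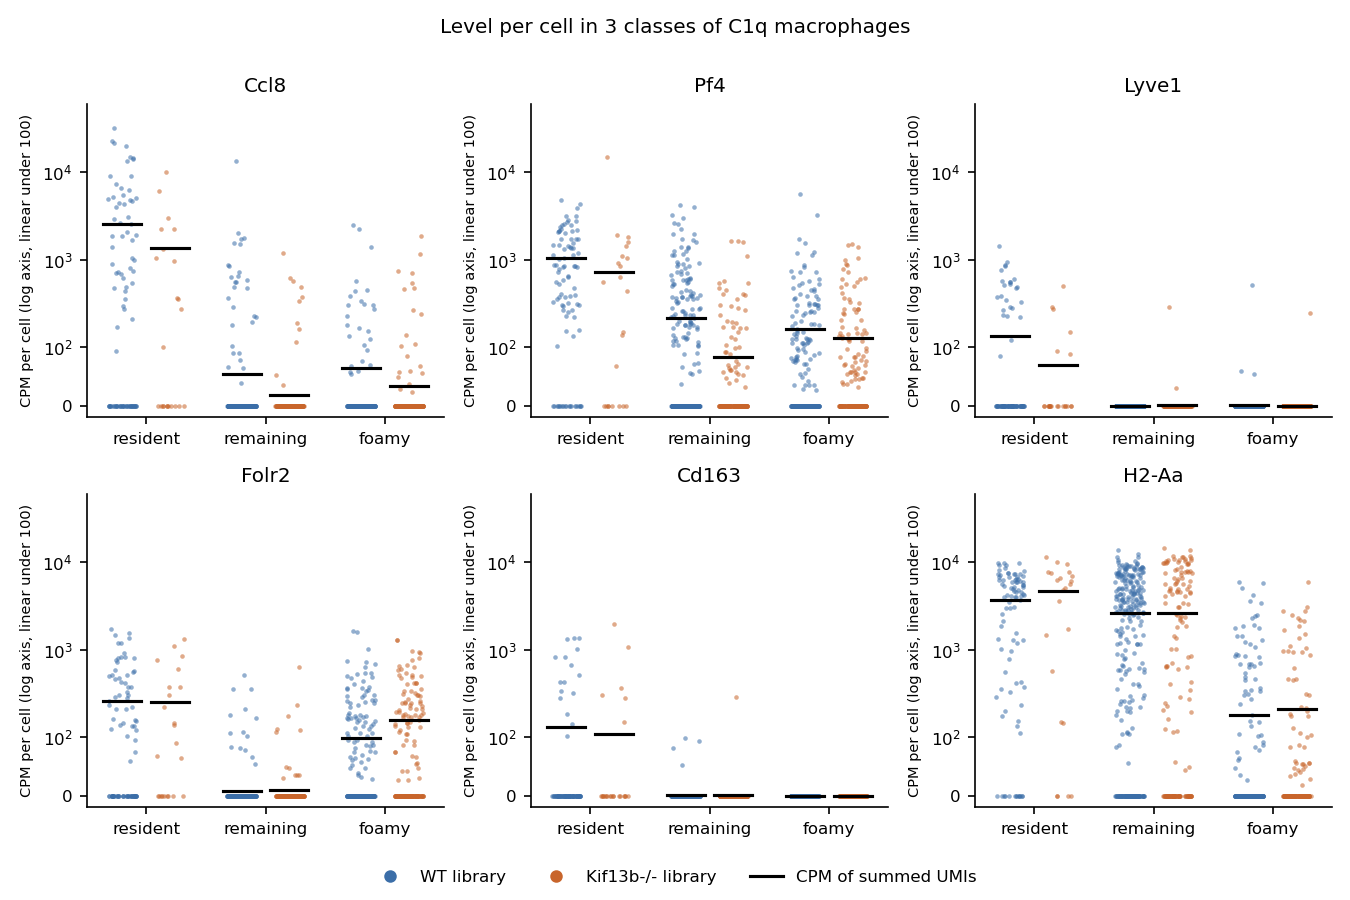
Level per cell, in CPM on an axis that is linear under 100 and logarithmic above, of Ccl8, Pf4, Lyve1, Folr2, Cd163 and H2-Aa in resident, remaining and foamy C1q macrophages of both libraries, with 1 point per barcode and a black line at the CPM of the summed UMIs. Ccl8 at 2567 and 1378 CPM and Pf4 at 1034 and 734 CPM are raised in the resident cells, while many single resident cells stay at 0 for Lyve1 and Cd163.

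Receptors of the resident programme marked smaller groups of members. Lyve1, the hyaluronan receptor of arterial adventitial macrophages, was seen in 25 wild-type and 6 Kif13b-/- members (27.5% and 26.1%) at 136 CPM (109 to 168) and 69.9 CPM (38.2 to 117), and in 2.83% and 3.76% of non-macrophage barcodes. In foamy cells it was at 1.47 and 0.323 CPM and in remaining cells at 0 and 0.897 CPM. Cd163, the haemoglobin scavenger receptor, was seen in 16 and 6 members at 130 and 110 CPM and in 0 foamy cells of either library. Among C1q macrophages these transcripts were thus scarce outside the members, though most members showed no UMI of Lyve1 and most no UMI of Cd163.

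Folr2 behaved otherwise, since foam cells carried it too. It stood at 258 CPM (220 to 301) and 255 CPM (190 to 335) in members, at 98.4 and 158 CPM in foamy cells and at 7.77 and 10.3 CPM in remaining cells. A Folr2 UMI was seen in 52.7% and 60.9% of members, 34.2% and 45.8% of foamy cells and 1.95% and 3.48% of non-macrophage barcodes. Cbr2, a carbonyl reductase, was seen in 43 and 11 members at 183 and 135 CPM (log2 ratios over other C1q macrophages 4.76 and 5.23), but non-macrophage barcodes held it at 61.0 and 71.7 CPM. Timd4, a receptor for phosphatidylserine on long-lived resident macrophages, was rare, with 6 UMIs in 4 wild-type members and 1 UMI in 1 Kif13b-/- member.

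Across all genes with at least 50 UMIs over the compared groups, the members were higher than other C1q macrophages by 2-fold or more in 7.68% of 8096 genes and lower in 12.9% in the wild-type library, and higher in 8.49% and lower in 18.6% of 7830 genes in the Kif13b-/- library. Against these shares, 20 of 25 measured resident macrophage genes outside the rule were higher and 1 lower in the wild-type library, with a median log2 ratio of 2.31 against -0.13 over all genes. In the Kif13b-/- library 16 of 21 were higher and 1 lower, with a median of 2.01 against -0.20. The list was drawn with earlier results of these data known, so its counts are no independent evidence of its direction.

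Further genes of that list were secreted proteins and receptors. Selenop, the selenium transport protein, stood at 1900 and 2142 CPM in members against 390 and 347 CPM in other C1q macrophages. Mgl2, a lectin gene beside Clec10a, stood at 191 and 190 CPM (log2 ratios 2.26 and 2.57). Cd36, a lipid scavenger receptor, was at 440 and 315 CPM (1.70 and 1.42). The lower member in both libraries was Igf1, insulin-like growth factor 1, at 152 and 190 CPM against 608 and 582 CPM in foamy and 343 and 455 CPM in remaining cells (log2 ratios over other C1q macrophages -1.63 and -1.46).

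The genes most above other C1q macrophages in both libraries, outside the rule and after genes richer in non-macrophage barcodes were left out, spanned several functions. Of the 7616 genes tested in both libraries, 522 were 2-fold higher in wild-type members. In Kif13b-/- members 636 of the 7616 were 2-fold higher and 1382 were 2-fold lower. In each library 305 were higher, which is 58.4% of those in the wild-type and 48.0% of those in the Kif13b-/- library. Another 18 were 2-fold higher in wild-type but 2-fold lower in Kif13b-/- members. Complement factor C4b stood at 282 and 285 CPM in members (log2 ratios 5.07 and 5.31). The growth factor Bmp2 was at 124 and 175 CPM (4.76 and 5.52). The zinc transporter gene Slc39a12 was at 153 and 220 CPM (4.40 and 4.83). The endothelin receptor Ednrb was at 191 and 210 CPM (4.14 and 5.53). Trim30c followed (4.81 and 3.67).

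Fap, a surface protease better known from activated fibroblasts, was among them. It stood at 1351 and 1134 CPM in members against 107 and 62.4 CPM in other C1q macrophages and 71.7 and 48.6 CPM in non-macrophage barcodes, and was seen in 60 wild-type and 13 Kif13b-/- members. Fibroblast markers in the same members summed to 244 and 205 CPM, close to the 208 and 260 CPM of remaining C1q macrophages, where Fap was at 174 and 106 CPM. The non-macrophage barcodes, in which the fibroblast markers were at 15439 and 15838 CPM, mix many cell types, and the source of the Fap RNA was not tested.

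Enzymes, ligands and transport genes made up the rest. Ltc4s, which makes leukotriene C4, was at 158 and 110 CPM (log2 ratios 3.99 and 3.21). Kitl, the ligand of the KIT receptor, was at 324 and 240 CPM (3.00 and 3.20). Fcgrt, the neonatal Fc receptor, was at 283 and 270 CPM (3.06 and 2.91). Maf, a transcription factor of resident macrophages, was at 363 and 235 CPM (2.59 and 2.75). The chemokine Ccl6 was at 1536 and 1154 CPM (2.52 and 3.65). With Ccl8 described above, Fxyd2, Agrn and Map7 completed the 15 genes, with log2 ratios of 2.51 to 3.38 in both libraries.

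**Figure D2:**
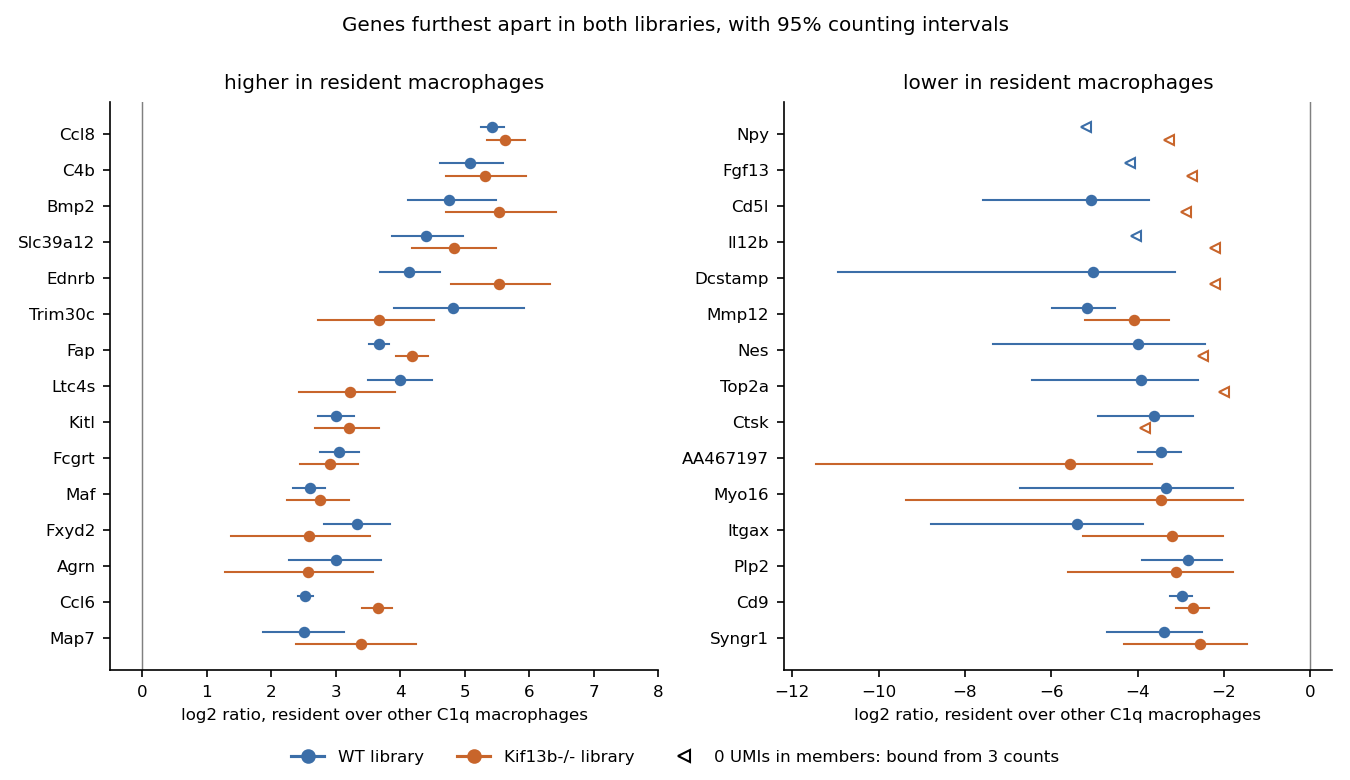
Log2 ratio of resident over other C1q macrophages, on the horizontal axis, for the named genes with the highest and lowest ratios, by library, with 95% counting intervals as bars and open triangles where the members held 0 UMIs and the value is a bound from 3 counts. C4b, at 5.07 and 5.31, and the other upper genes lie above 0 in both libraries, and Mmp12, at -5.16 and -4.08, and the other lower genes lie below 0.

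The genes most below other C1q macrophages included neuropeptide, growth factor, cytokine and protease genes. The rule removed cells rich in Spp1, Trem2 and Gpnmb from the members and left them in the comparison group, so lower foam cell genes follow in part from the choice of cells. Npy was at 0 UMIs in the members of both libraries and at 171 and 145 CPM in other C1q macrophages, at least 36.5-fold and 9.68-fold lower when 3 counts over the group are taken as the floor. Fgf13 (at least 18.2-fold and 6.69-fold lower) and the interleukin 12 subunit gene Il12b (at least 16.3-fold and 4.63-fold lower) were at 0 as well. Mmp12, the macrophage elastase, stood at 26.6 and 49.9 CPM in members against 981 and 889 CPM.

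Of the other lower genes, several mark lipid-laden or osteoclast-like macrophages. Ctsk, a collagen-cutting cathepsin, was at 12.5 and 0 CPM against 163 and 214 CPM in other C1q macrophages. Itgax, the integrin CD11c, was at 3.13 and 19.98 CPM against 166 and 209 CPM. The tetraspanin Cd9 was at 210 and 295 CPM against 1665 and 1950 CPM. AA467197 was at 54.8 and 4.99 CPM against 608 and 355 CPM. Cd5l, an apoptosis inhibitor secreted by macrophages, was at 4.69 and 0 CPM against 184 and 110 CPM. Dcstamp, Nes, Top2a, Myo16, Plp2 and Syngr1 were the other genes among the 15 lowest.

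The list of lipid-associated genes outside the rule had 15 of 23 measured genes lower and 0 higher in each library, with medians of -1.53 and -1.59. Lgals3, the lectin galectin-3, was at 1183 and 1393 CPM in members against 3792 and 4303 CPM in other C1q macrophages. In the remaining cells alone, from which the foam cells are absent, Lgals3 was at 2676 and 2620 CPM and Cd9 at 892 and 1081 CPM, still above the members. Apoe, the lipid carrier apolipoprotein E, went the other way, at 14353 and 22513 CPM in members against 11665 and 13896 CPM in other C1q macrophages and 6617 and 8441 CPM in the remaining cells. Lysosomal genes, with 5 of 26 lower and 0 higher in each library (medians -0.30 and -0.17), were closer to the median of all genes.

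Cell cycle genes were low in the members. In the wild-type library 12 of 16 measured genes were lower and 0 higher, with a median of -2.47, or -2.20 with the 3 genes at 0 UMIs set to their bound, and in the Kif13b-/- library 8 of 14 were lower and 0 higher (median -1.42, or -0.62 with 5 genes at their bound). The 8 include the 5 genes at 0 UMIs, which the prior count alone places past 2-fold, and by their bounds not all 8 are 2-fold lower. Stmn1, a tubulin regulator of dividing cells, was at 45.4 and 39.95 CPM against 205 and 142 CPM. Top2a, the topoisomerase of dividing cells, was at 4.69 and 0 CPM against 83.6 and 59.9 CPM.

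Antigen presentation genes were higher in the members than in the other C1q macrophages. H2-Aa, a chain of the MHC class II molecule that presents peptides to T cells, stood at 3706 CPM (3558 to 3858) and 4734 CPM (4438 to 5046) in members, at 2647 and 2613 CPM in remaining cells and at 181 and 211 CPM in foamy cells. Cd74, the chaperone of these molecules, stood at 7694 and 11282 CPM against 5511 and 5362 CPM in remaining cells. Of 8 measured class II genes 6 were higher and 0 lower in each library (medians 1.30 and 1.68). The comparison group of these counts includes the foamy cells, and their part in the counts was not tested. Over remaining cells alone H2-Aa was under 2-fold higher in both libraries and Cd74 in the wild-type library only. Non-foamy cells at 500 to under 1000 CPM of the panel held H2-Aa at 4006 CPM (wild-type, above the members) and 4015 CPM (Kif13b-/-, below them). With the panel limit raised to 2000 CPM, 0 of 8 were higher and 1 lower in the wild-type library (median 0.47), while 7 were higher in the Kif13b-/- library (median 1.46).

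Class II levels split the members. H2-Aa was at 0 UMIs in 13 wild-type and 4 Kif13b-/- members, under 1000 CPM in 28 and 7 (those at 0 included), at 1000 to under 5000 CPM in 27 and 4, and at 5000 CPM or more in 36 and 12. The medians were 4088 and 5093 CPM and the highest cells 9836 and 11350 CPM.

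Monocyte genes were seen in part of the members. Ccr2, the receptor that brings monocytes into tissue, stood at 138 and 175 CPM in members, against 69.2 and 52.9 CPM in remaining and 5.90 and 7.43 CPM in foamy cells (log2 ratios over other C1q macrophages 1.85 and 2.74), and was seen in 26 and 10 members. The monocyte list had 3 of 8 measured genes higher and 1 lower in each library, and S100a4, a calcium-binding protein of migrating cells, was the lower one (548 and 549 CPM, log2 ratios -1.06 and -1.39).

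Interferon-stimulated genes, which cells switch on against viruses, were higher in 11 of 16 in the wild-type and 15 of 17 in the Kif13b-/- library, with 0 lower in either and medians of 1.27 and 1.77. Isg15, a ubiquitin-like modifier, was at 732 and 729 CPM in members against 235 and 173 CPM. Ifit1, an RNA-binding antiviral protein, was at 430 and 474 CPM against 190 and 133 CPM. Rsad2, the antiviral enzyme viperin, was at 868 and 1833 CPM against 244 and 226 CPM, but 130 of its 367 Kif13b-/- UMIs came from 1 cell.

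CC chemokines, which recruit leukocytes, were higher in 6 of 9 genes with 0 lower in the wild-type library (median 1.14) and in 8 of 10 with 1 lower in the Kif13b-/- library (median 1.53). Ccl7 stood at 3325 and 3406 CPM in members against 868 and 501 CPM (log2 ratios 1.94 and 2.77), and Ccl2, the main ligand of CCR2, at 3150 and 2537 CPM against 1442 and 916 CPM. Ccl9 was at 608 and 714 CPM (1.26 and 1.72). Ccl3, in contrast, was near the other cells in the wild-type library (1538 against 1815 CPM, log2 ratio -0.24) and above them in the Kif13b-/- library (3036 against 1453 CPM, 1.06). CXC chemokines showed 1 of 8 higher and 3 lower in wild-type members and 3 of 8 higher and 2 lower in Kif13b-/- members.

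Inflammatory genes numbered 4 of 21 higher and 1 lower (median -0.02) in the wild-type library and 7 of 21 higher and 0 lower (median 0.42) in the Kif13b-/- library. Il6, the cytokine interleukin 6, was at 116 and 105 CPM in members (log2 ratios 2.03 and 2.08). Growth factors went both ways, with 5 of 18 higher and 3 lower, and 6 of 18 higher and 4 lower. Hbegf, an EGF receptor ligand, was at 202 and 265 CPM (2.96 and 2.98), whereas the platelet-derived factor Pdgfb had log2 ratios of -2.61 and -2.23. Of 18 immediate early and heat shock genes, 8 and 7 were higher and 0 lower (medians 0.87 and 0.85).

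Receptors for dying cells, the subject of the series, gave no single direction. The efferocytosis list had 5 of 18 genes higher and 5 lower in wild-type members (median 0.23) and 5 of 18 higher and 1 lower in Kif13b-/- members (median 0.41). Mertk was at 111 CPM (86.7 to 140) and 120 CPM (76.8 to 178) in members, at 116 and 132 CPM in foamy cells and at 40.2 and 54.3 CPM in remaining cells. Gas6, the bridging ligand of MERTK, was at 219 and 270 CPM against 53.2 and 67.6 CPM in other C1q macrophages, but non-macrophage barcodes held 360 and 454 CPM. Axl, the related receptor, was at 61.0 and 89.9 CPM in members and at 148 and 202 CPM in remaining cells. Mfge8, another bridging molecule, was at 14.1 and 19.98 CPM against 236 and 186 CPM, and the receptor Lrp1 at 230 and 275 CPM against 530 and 550 CPM.

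Scavenger, haem and complement genes each had some members above the other C1q macrophages. Scavenger and endocytic receptors were higher in 7 of 20 and lower in 2 in the wild-type library and higher in 4 of 17 and lower in 0 in the Kif13b-/- library (medians 0.42 and 0.50), with the inhibitory Fc receptor Fcgr2b at 529 and 604 CPM (log2 ratios 1.10 and 1.20). Haem and iron genes were higher in 6 of 15 and 5 of 13. Hmox1, the haem-degrading enzyme, stood at 2201 and 1024 CPM in members against 795 and 471 CPM, and the iron carrier Trf at 335 and 489 CPM (1.40 and 1.80). Complement genes outside the rule were higher in 4 of 10 and lower in 0 in each library, among them properdin, Cfp, at 233 and 260 CPM (1.97 and 2.03).

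Transcription factors and receptors differed in few members. Among transcription factors 4 of 23 were higher and 2 lower in the wild-type library and 4 of 21 higher and 2 lower in the Kif13b-/- library, Maf being higher in both. Of 15 cytokine and growth factor receptors 3 and 5 were higher and 1 and 1 lower, the chemokine receptors Ccr1 (191 and 135 CPM, log2 ratios 2.02 and 2.14) and Ccr2 being among those higher in both. Csf1r, the receptor for the growth factor that macrophages depend on, was at 400 and 424 CPM (0.56 and 0.62). Alternative activation genes were higher in 3 of 10 and lower in 0 in wild-type members and higher in 5 of 11 and lower in 2 in Kif13b-/- members. Partners of KIF13B were higher in 0 of 8 and lower in 2 in the wild-type library and higher in 1 of 8 and lower in 3 in the Kif13b-/- library.

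The members were not uniform, and the cells that showed Lyve1 carried more of several resident genes. The 25 wild-type members with a Lyve1 UMI held Ccl8 at 3996 CPM, Folr2 at 617 CPM, Cd163 at 378 CPM and Cbr2 at 356 CPM. The 66 members without one held 2007, 118, 32.7 and 115 CPM of these genes. H2-Aa ran the opposite way, at 2407 CPM with and 4214 CPM without Lyve1, and the median depths were 6899 and 6410.5 UMIs. In the Kif13b-/- library the 6 members with Lyve1 held Ccl8 at 2344 CPM and Folr2 at 536 CPM and the other 17 held 968 and 135 CPM, with H2-Aa at 3868 and 5102 CPM. Mrc1, a rule gene, was at 1451 CPM with and 1236 CPM without Lyve1 in the wild-type library but at 854 and 1295 CPM in the Kif13b-/- library.

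Members with Ccr2 had less Ccl8. The 26 wild-type members with a Ccr2 UMI held Ccl8 at 917 CPM and Cd74 at 10325 CPM, against 3333 and 6472 CPM in the 65 without. In the Kif13b-/- library the 10 members with Ccr2 held Ccl8 at 255 CPM and the other 13, among them the member richest in Ccl8, held 2542 CPM. The median depths with and without Ccr2 were 7030 and 6407 UMIs in wild-type and 10768 and 6651 UMIs in Kif13b-/- members. Across the 91 wild-type members, Spearman's rho between per-cell levels was 0.62 for Ccl8 and Cbr2, 0.57 for Ccl8 and Folr2, 0.57 for Lyve1 and Folr2 and -0.37 for Pf4 and H2-Aa. These cells share 1 library and differ in depth, so the correlations are descriptions. Across the 23 Kif13b-/- members rho was 0.68 for Ccl8 and Folr2, 0.47 for Ccl8 and Cbr2, 0.47 for Lyve1 and Folr2 and -0.23 for Pf4 and H2-Aa. For Ccl8 and Ccr2 it was -0.26 in wild-type and -0.32 in Kif13b-/- members. The pairs named, other than Ccl8 and Ccr2, were picked from more pairs for their size in the wild-type library.

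**Figure D3:**
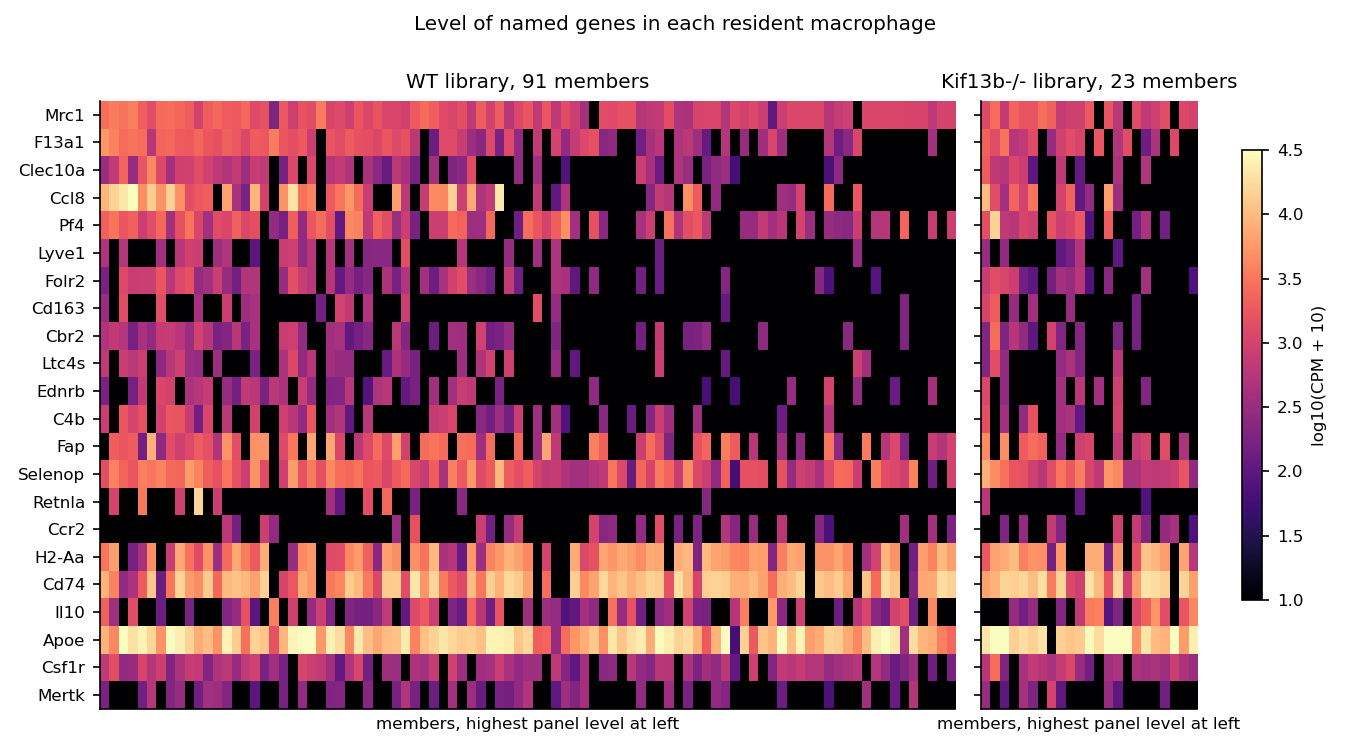
Level per cell, as log10 of CPM plus 10, of 22 genes (rows) in the 91 wild-type and 23 Kif13b-/- resident macrophages (columns), each library ordered by the summed level of Mrc1, F13a1 and Clec10a. Ccl8, Folr2, Cd163 and Lyve1 gather toward the cells with more of the panel, and the class II genes H2-Aa and Cd74 are present in most cells and at 0 UMIs of H2-Aa in 13 and 4 cells.

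The limit at 1000 CPM cut through a graded series rather than a gap for some genes and not for others. Among wild-type C1q macrophages that were not foamy, Ccl8 stood at 12.7 CPM in the 152 cells with 0 CPM of the panel, 55.6 CPM in the 103 cells above 0 and under 500 CPM and 181 CPM in the 57 cells at 500 to under 1000 CPM. Inside the limit it stood at 433 CPM in 34 cells at 1000 to under 1500 CPM, 2080 CPM in 27 cells at 1500 to under 3000 CPM and 5725 CPM in 30 cells at 3000 CPM or more. Pf4 had the order 70.2, 202, 704, 498, 1258 and 1537 CPM over the same 6 groups, so that the groups next to the limit on either side were reversed.

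Lyve1 was at 0 UMIs in all 3 wild-type groups outside the limit and at 7.60, 169 and 274 CPM in the 3 groups inside it. Folr2 was at 6.72, 4.71 and 18.5 CPM outside and at 30.4, 309 and 509 CPM inside. H2-Aa was highest around the limit, at 1573, 3449 and 4006 CPM outside and at 4649, 3746 and 2457 CPM inside. Ccr2 went from 26.1, 98.9 and 130 CPM outside to 148, 198 and 73.4 CPM inside. The 34 members nearest the limit thus held less Ccl8, Lyve1 and Folr2 and more H2-Aa than the 30 members farthest from it. In the Kif13b-/- library the groups inside the limit held 8, 9 and 6 cells, with Ccl8 at 0, 1340 and 3565 CPM and H2-Aa at 5471, 3953 and 5135 CPM, and no order is read from so few cells.

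**Figure D4:**
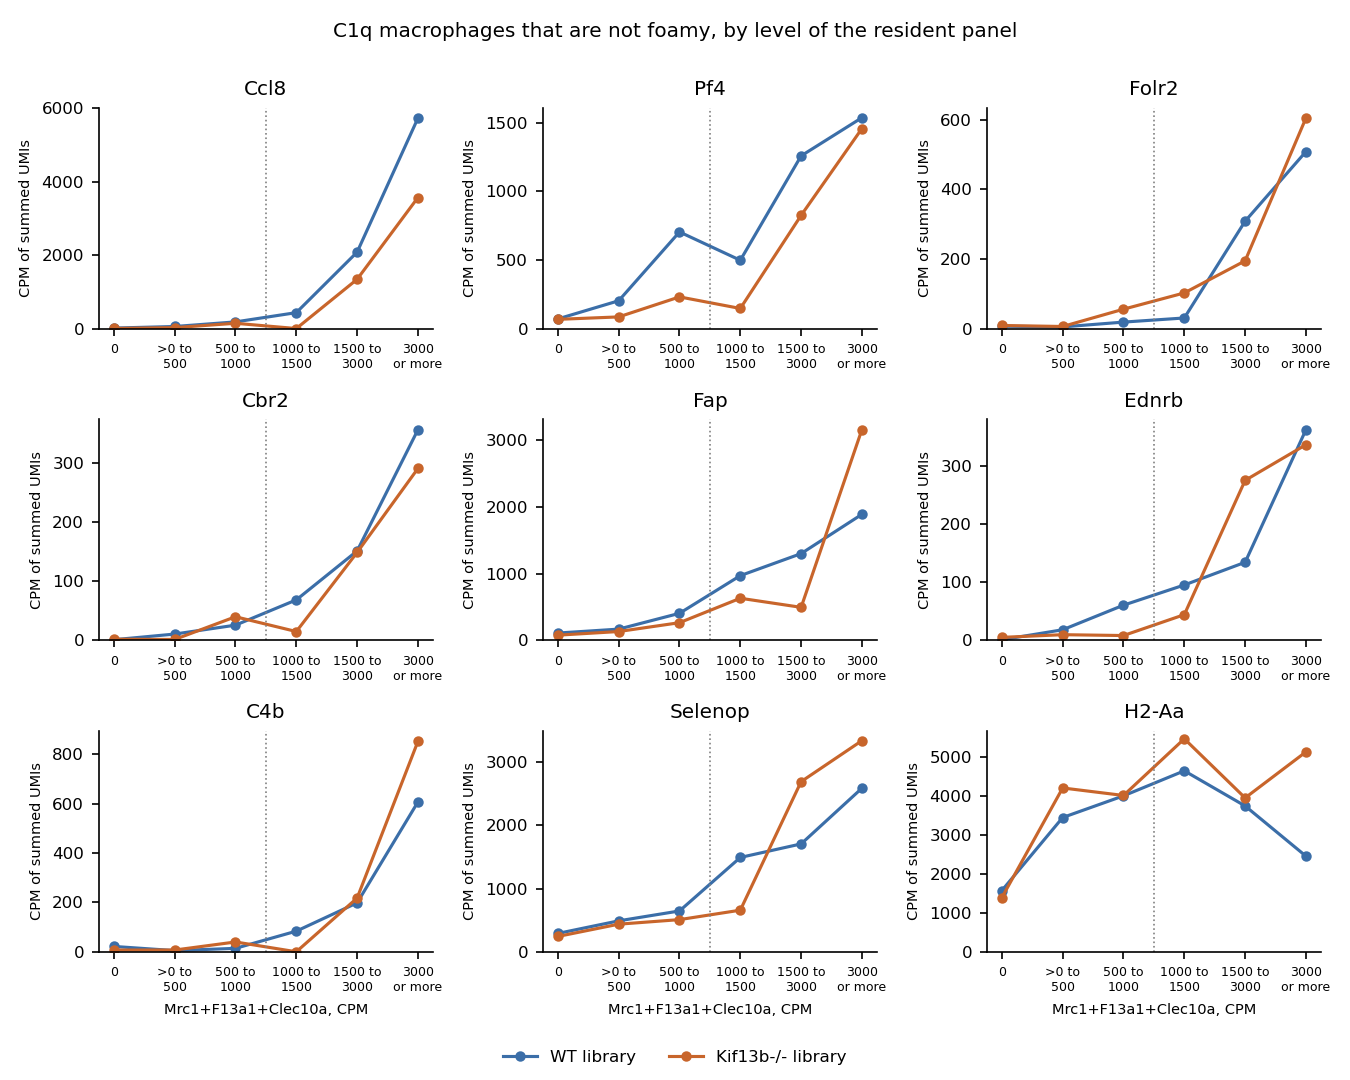
Level of 9 genes, in CPM of summed UMIs, in non-foamy C1q macrophages grouped by their summed level of Mrc1, F13a1 and Clec10a, by library, with a dotted line at the 1000 CPM limit of the rule. In the wild-type library Ccl8 goes from 12.7 to 5725 CPM, while H2-Aa reaches 4649 CPM in the group just inside the limit and is at 2457 CPM in the last group.

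The libraries were then set side by side. Among C1q macrophages, members were 14.2% (11.6 to 17.2%) in the wild-type and 6.27% (4.01 to 9.26%) in the Kif13b-/- library, and they were 0.667% (0.537 to 0.818%) and 0.363% (0.230 to 0.544%) of all barcodes past the depth and mitochondrial limits. The panel was also reached by 252 and 51 barcodes past those limits in all, of which 126 and 15 were under the C1q minimum, 27 and 13 over a smooth muscle or fibroblast limit, and 8 and 0 foamy. With the panel limit at 500 CPM the share of C1q macrophages was 21.9% and 10.1%, and at 2000 CPM it was 6.72% and 3.00%. Fewer cells captured and less panel RNA per cell cannot be told apart in such a share, and the number of cells recovered was not tested.

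Within the members, 1.84% of 2664 genes were 2-fold higher and 4.28% were 2-fold lower in the Kif13b-/- library. Of 24 measured resident genes outside the rule, 0 were higher and 1 was lower, with a median log2 ratio, taken as Kif13b-/- over wild-type, of -0.22 against -0.02 over all genes. Ccl8 had a log2 ratio of -0.89 (-1.09 to -0.71), and -1.32 without the member of each library that held the most Ccl8 UMIs (210 of 1641 and 105 of 276). In other C1q macrophages of the same libraries it was -1.10 (-1.39 to -0.82). Pf4 had a log2 ratio of -0.49 (-0.76 to -0.23), but it turned to 0.50 with every barcode thinned to 1500 UMIs and to 0.24 with each cell weighing the same, so no direction of Pf4 is read. Lyve1 had a log2 ratio of -0.92 (-1.89 to -0.14) and Folr2 of -0.01 (-0.50 to 0.44).

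The rule genes had to reach the same limit in both libraries, so their ratios are given without a reading. The log2 ratio was -0.15 (-0.37 to 0.06) for Mrc1, at 1297 and 1164 CPM, -0.36 (-0.64 to -0.10) for F13a1, at 932 and 724 CPM, and -0.05 for Clec10a, at 311 and 300 CPM. The lower gene of the resident list was Fcna, a ficolin of the complement lectin pathway, at 95.4 and 30.0 CPM (-1.57, -3.17 to -0.47). The lower haem gene was Hmox1 (-1.10, -1.32 to -0.89), which was also lower in foamy (693 and 367 CPM) and remaining cells (892 and 616 CPM).

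**Figure D5:**
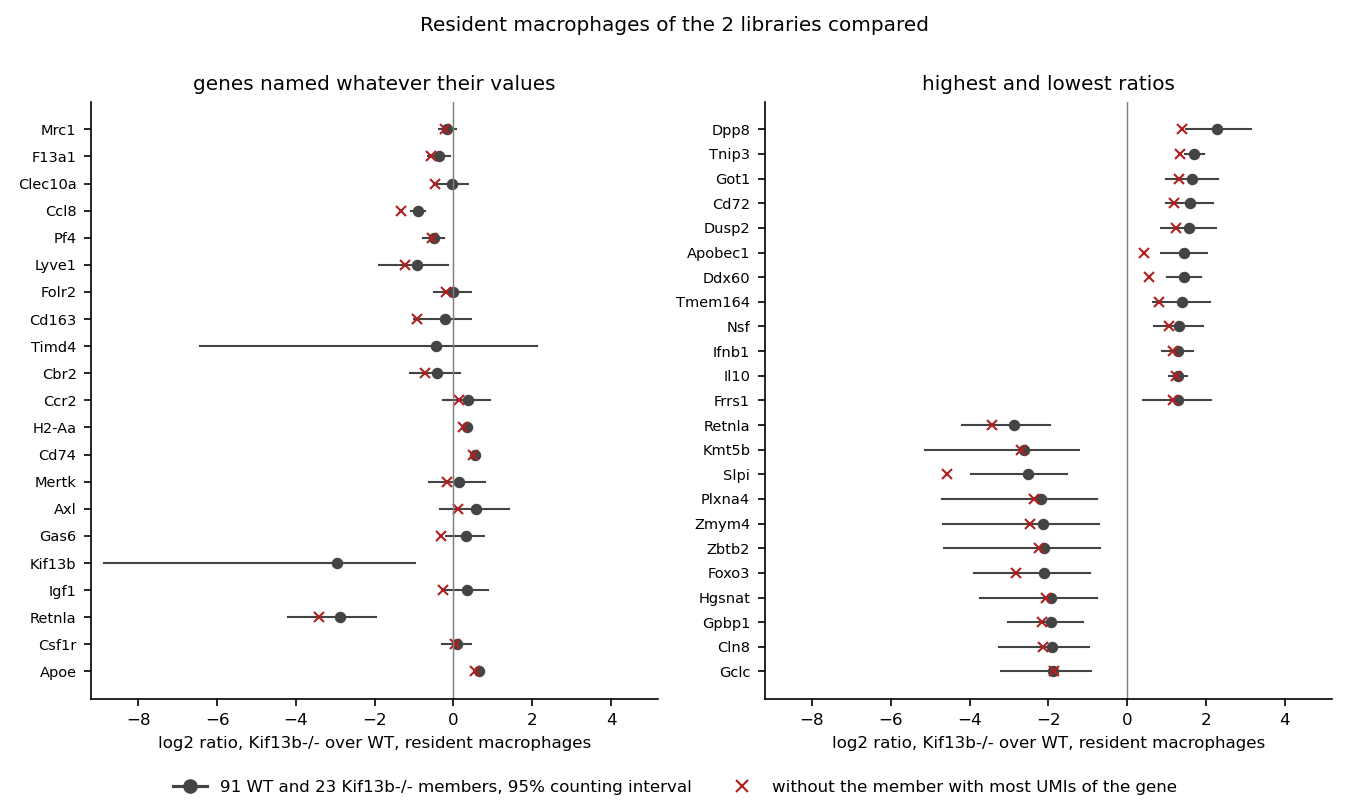
Log2 ratio of the Kif13b-/- over the wild-type library within resident macrophages, on the horizontal axis, for genes named whatever their values and for those with the highest and lowest ratios, with 95% counting intervals as bars and crosses for the value without the member of each library with the most UMIs of the gene. Ccl8 is at -0.89, or -1.32 without its top members, and Apobec1 goes from 1.45 to 0.42.

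Single antigen presentation genes and Apoe differed between the libraries by less than 2-fold. H2-Aa had a log2 ratio of 0.35 (0.24 to 0.46) and Cd74 of 0.55 (0.48 to 0.62), whereas in other C1q macrophages they were at -0.24 and -0.25. Of 7 measured class II genes 0 passed 2-fold, with a median of 0.32. Apoe had a log2 ratio of 0.65 (0.60 to 0.70). Interferon-stimulated genes had 1 of 8 higher, Rsad2 (1.08, or 0.79 without its top members), which was seen in 46 wild-type and 8 Kif13b-/- members.

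The genes with the highest ratios often rested on few cells. Il10, an anti-inflammatory cytokine, was at 549 and 1338 CPM (1.29, 1.05 to 1.52), seen in 59 and 15 members, and kept a ratio of 1.25 without its top member, but turned to -1.55 with the panel limit at 2000 CPM. Tnip3, an inhibitor of NF-kappa-B signalling, was at 460 and 1498 CPM (1.70), with 131 of 300 Kif13b-/- UMIs in 1 cell, and turned to -0.33 among members with at least 2 panel genes. Dpp8, a dipeptidyl peptidase, was at 34.4 and 170 CPM (2.29), with 20 of its 34 Kif13b-/- UMIs in 1 cell, and turned to -0.14 under the same condition. Dusp2, a phosphatase of MAP kinases, was at 61.0 and 180 CPM (1.56) and turned to -0.78.

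Another 7 of the 12 highest genes kept their sign in all 12 settings run, though not their size. Of these settings, the 1 without possible doublets removed 0 members and so could not change a ratio. Got1, an aspartate aminotransferase, was at 64.1 and 200 CPM (1.64, or 1.33 without the top member). Cd72, an inhibitory lectin, was at 79.8 and 240 CPM (1.59, or 1.20). Ifnb1, interferon beta, was at 200 and 489 CPM (1.29, or 1.16). The cytidine deaminase Apobec1 (1.45, or 0.42) and the RNA helicase Ddx60 (1.45, or 0.56) moved more, with 29 of 48 and 46 of 87 Kif13b-/- UMIs in 1 cell. Tmem164 (1.39) and Nsf (1.31) were the others, and Frrs1, the last of the 12, at 45.4 and 110 CPM (1.28), turned to -0.76 with every barcode thinned to 1500 UMIs.

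The genes with the lowest ratios held few UMIs in the Kif13b-/- members. Retnla, a secreted protein of alternatively activated macrophages, was at 311 CPM in wild-type members (199 UMIs in 12 cells, 110 of them in 1 cell) and at 39.95 CPM in Kif13b-/- members (8 UMIs in 3 cells), a log2 ratio of -2.88 (-4.19 to -1.96), or -3.43 without the top members. It was at 0 UMIs in other wild-type C1q macrophages, where the members were at least 576-fold higher. Slpi, a protease inhibitor, was at 214 and 35.0 CPM (-2.52). Kmt5b, a histone methyltransferase, was at 106 and 14.98 CPM (-2.62). Gpbp1 was at 219 and 54.9 CPM (-1.94), Cln8 at 160 and 39.95 CPM (-1.92) and Gclc, an enzyme of glutathione synthesis, at 155 and 39.95 CPM (-1.87). Foxo3, a stress-responsive transcription factor, was at 117 and 25.0 CPM (-2.10), and Zbtb2 at 75.1 and 14.98 CPM (-2.12). Plxna4, Zmym4 and Hgsnat had log2 ratios of -2.18, -2.15 and -1.94, and Zmym4 turned to 0.30 with every barcode thinned to 1500 UMIs.

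Lists other than these had few members past 2-fold between the libraries. Inflammatory genes had 2 of 21 higher and 0 lower, Cd14 (1117 and 2302 CPM) and Il1b (882 and 1833 CPM). Without the top members of each gene both were under 2-fold (0.99 and 0.86), and 0 genes of that list were higher and 3 lower, as they were among members with at least 2 panel genes. Transcription factors had 1 of 17 higher and 2 lower, the lower ones being Klf4 (324 and 125 CPM) and the immediate early factor Nr4a1 (177 and 74.9 CPM). Hspa1a, a heat shock chaperone, was at 909 and 330 CPM (-1.45), the single lower gene among 18 immediate early and heat shock genes. Efferocytosis genes had 0 of 15 past 2-fold, lipid-associated genes 0 of 15, CC chemokines 0 of 9, scavenger receptors 0 of 16 and complement genes 0 of 8, with medians of 0.26, 0.11, 0.04, 0.14 and 0.00.

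Kif13b itself was thin in these cells. It stood at 57.9 CPM (40.8 to 79.8) in wild-type members, with 37 UMIs in 26 cells, and at 4.99 CPM (0.126 to 27.8) in Kif13b-/- members, with 1 UMI, a log2 ratio of -2.97 (-8.88 to -0.97). Foamy cells held 73.3 and 68.5 CPM and remaining cells 44.8 and 35.0 CPM, so the transcript was present in other macrophages of the Kif13b-/- library. With every barcode thinned to 1500 UMIs the ratio turned to 0.30, on 5 and 1 UMIs. Tags from the 3′ end may lie outside the deleted part, so these counts check nothing about the genotype label. Mertk had a log2 ratio of 0.13 (-0.62 to 0.80) in the members and Axl of 0.58 (-0.33 to 1.40), and their intervals included 0.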

How the data were processed

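Droplet-based 3′ single-cell RNA sequencing of aorta, 1 wild-type and 1 Kif13b-/- library, was used as filtered count matrices. The deposited values are raw UMI counts made by the authors with Cell Ranger 8.0.1, per the file headers, on mm10, per the submitters' processing notes; the annotation behind the 33696 features was not given in the sources used here. Each library loaded 6000 cells with 3000 targeted, per the labels, and 0 columns were left unused. The 21126 and 7766 deposited barcodes exceeded the 6000 cells loaded, as did the 13653 and 6342 past the depth and mitochondrial limits. If the labels hold, not every barcode is 1 loaded cell, and the reason was not tested. Of the symbols, 26 named several features.

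Members were found by the rule with Python 3.11.15, numpy 2.4.6, scipy 1.17.1 and pandas 2.3.3. The members and the 20 gene lists were chosen with earlier results of these data known. UMIs were summed per gene, group and library and divided by the group's total, and a prior count of 0.5 entered the log2 ratios of genes with at least 50 UMIs over the compared groups. Intervals at 95% are exact Poisson for levels, exact conditional for ratios and Clopper-Pearson for shares, and a count of 0 was bounded from 3 counts. Genes 2-fold apart were counted, without a test, by a script tested on simulated data. Scrublet, in scanpy 1.11.5, called 4 and 0 barcodes as doublets and so had not worked; none were removed, and an alternative dropped the 3570 and 482 highest-scoring barcodes, 0 of them members. Gene positions are GENCODE M21 and promoters RefSeq, matched for 8 of 10 genes.

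Named genes were 21 whatever their values, the 15 highest and 15 lowest against other C1q macrophages by the weaker library, the 12 highest and 12 lowest between libraries with intervals leaving out 0, all at 50 CPM or more, and up to 4 per list. Ribosomal, mitochondrial, haemoglobin, immunoglobulin, T cell receptor, sex-linked, Gm and Rik genes and genes richer in non-macrophage barcodes were left out, and a few named genes are not reported here. S100a8, S100a9, Retnlg and Cxcr2 were named after their values were seen. Alternatives changed depth, mitochondrial, panel and stroma limits, thinning, weighting of cells, the gene minimum and the prior count; 2 more, members with at least 2 panel genes and leaving out the member richest in a gene, were chosen after seeing the data.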

Additional observations from a re-analysis of the deposited data

Results flagged for a closer look

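Barcodes under 1500 UMIs were outside the selection. Among these, 89 wild-type barcodes met the C1q and stroma conditions and 4 of them (4.49%, 1.24 to 11.1%) met the panel condition as well, holding 4700 UMIs, 6 of them Ccl8. In the Kif13b-/- library 3 of 33 did (9.09%, 1.92 to 24.3%).

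For 6 genes the log2 ratio of Kif13b-/- over wild-type had opposite signs in resident and in other C1q macrophages, and the difference between the cell groups was not tested. H2-Aa was at 0.35 in resident and -0.24 in other cells, and Cd74 at 0.55 and -0.25. Ddx60 was at 1.45 and -0.68, and Ifnb1 at 1.29 and -0.88. Zbtb2 was at -2.12 and 0.60, and Foxo3 at -2.10 and 0.42. The remaining cells alone were at -0.02 for H2-Aa and -0.04 for Cd74. Foamy cells, which hold little of both class II transcripts, made up 237 of 549 other C1q macrophages in the wild-type and 179 of 344 in the Kif13b-/- library.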

How the results depend on the processing

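Each library is 1 sample, so depth and cell number limit every value: 23 Kif13b-/- members hold 200238 UMIs. No paired analysis was possible because each genotype has 1 library. The share of C1q macrophages that were members was 21.9% and 10.1% with the panel limit at 500 CPM, 6.72% and 3.00% at 2000 CPM and 10.6% and 3.54% with at least 2 panel genes, and 13.6 to 15.5% and 5.79 to 6.67% in the others.

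Genes 2-fold higher in members than in other C1q macrophages (622 and 665) numbered 215 and 177 with barcodes thinned to 1500 UMIs, 1073 and 1162 at a minimum of 20 UMIs and 264 and 264 at 200 UMIs, where fewer or more genes were tested, and 1215 in the Kif13b-/- library at 2000 CPM. Genes 2-fold lower (1041 and 1457) numbered 299 and 309 thinned, 384 and 530 at 200 UMIs and 627 and 420 with a prior count of 2. Between libraries, the 49 higher genes became 30 at 2000 CPM, 9 thinned, 191 at 20 UMIs, 7 at 200 UMIs and 18 without the member richest in the gene, and the 114 lower genes became 66, 33, 388 and 9 in the first 4 of these settings.

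Of 528 ratios between libraries recomputed for 44 genes, 41 had the opposite sign, 11 of them of genes past 2-fold and 30 of genes under it, such as Pf4 (0.50 thinned and 0.24 with each cell weighing the same), and the cause was not tested. The 528 include the setting without possible doublets, which removed 0 members and could not change a ratio between libraries. Tnip3 turned to -1.33 at 2000 CPM, -0.32 thinned and -0.33 with at least 2 panel genes. Dusp2 turned to -0.99, -0.30 and -0.78, Dpp8 to -0.14 with at least 2 panel genes, Il10 to -1.55 at 2000 CPM, and Frrs1 to -0.76, Zmym4 to 0.30 and Kif13b to 0.30 thinned. Of 1100 ratios of members over other C1q macrophages, 0 of a called gene changed sign. Most genes behind these ratios were named for having the highest or lowest such ratios in these same cells, and the panel genes of the rule are among the rest. The choice of genes thus largely set their steady sign in advance, so this count cannot show how robust the ratios are. Resident, interferon-stimulated and CC chemokine lists had more genes higher than lower in all 13 settings in both libraries. Lipid-associated, lysosomal and cell cycle lists had more lower than higher in those settings. The class II list had more higher in 12 wild-type and 13 Kif13b-/- settings. Over all genes of the main setting, 12.9% were lower and 7.68% higher in the wild-type library, and 18.6% and 8.49% in the Kif13b-/- library. The lysosomal list, with 5 of 26 lower in each library, is therefore not read as apart from all genes.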
